A study of Mus musculus with 2 samples.

Results

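The Rab GTPases of the mouse cerebral cortex are described here from total RNA sequencing. The genes were chosen by name: a symbol made of Rab and a number, with at most 1 letter after it, and at least 1 protein-coding transcript in the annotation. This gave 59 genes of the 55536 in the gene tables, or of 22028 protein-coding genes. They lie on 18 chromosomes, with 4 on the X. Mice of the strain B6CASTF1/J, a first-generation cross of C57BL/6 with CAST, were males aged 14 days, and the tissue was the cerebral cortex of the left side. The labels name no treatment or engineered allele. The 2 libraries, replicates 1 and 2, form 1 group and were each made from 300 ng of RNA. The labels name a biosample for each library but the same donor entry for both, and mention 3 males, with no word on pooling. The spread between the libraries may therefore be technical. With 1 group no test between conditions can be made, and no p-value is given.

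Rab proteins are small GTPases that mark the membranes of the cell. In the GTP-bound state a Rab sits on its membrane and binds effectors such as tethers, motors and fusion factors. Exchange factors (GEFs) load GTP, GTPase-activating proteins (GAPs) stimulate its hydrolysis, and GDP dissociation inhibitors (GDIs) carry the inactive protein through the cytosol. In neurons this cycle serves the release and recovery of synaptic vesicles, the sorting of receptors in endosomes, and transport along axons and dendrites.

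Rab proteins attach to membranes by lipid groups added to cysteines at their C-terminal end, and this end separates the members by sequence. Each of the 59 coding models held a cysteine within its last 5 residues. In 20 genes the model ended in cysteine, any residue, cysteine. In 15 it ended in a cysteine pair, and in 24 another residue came last. The last 10 coding codons, before the stop codon, are shown for the Rab3 genes and for the pairs closest in coding sequence, Rab6a with Rab6b (78.4% identical nucleotides) and Rab8a with Rab8b (77.2%). They were read 5′ to 3′ from GENCODE M21 transcripts, and cysteine codons are in capitals.
Rab3a: caggcgccacctcatcaggatTGTgccTGC
Rab3b: ccacctctgctgcagcagaacTGCtctTGT
Rab3c: cctcctccaccacagcccaacTGTggcTGC
Rab3d: ccacccccacagccgagcagcTGCagcTGT
Rab6a: caaccagtcaatgaaggcggcTGTtccTGC
Rab6b: cccccggccagcgagggcggcTGCtccTGT
Rab8a: aggaccagcttcttccggTGCagtctcctg
Rab8b: aagaccagtttcttccgcTGTtctctgctt

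The Rab3 and Rab6 models shown ended in the cysteine, residue, cysteine form. The Rab8 models had a single cysteine codon, followed by 3 others. Genes of the first form held 52.4% of the members' summed TPM in replicate 1 and 53.5% in replicate 2. Genes ending in a cysteine pair held 19.5% and 19.9%, and the remaining 24 genes held 28.1% and 26.7%.

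The libraries held 28263266 and 30862848 expected counts, estimated reads per gene. A count of 0 allows up to 3 counts, 0.106 and 0.0972 CPM, counts scaled to library size. Markers of cortical excitatory neurons were detected in both, at 5 of 5. The libraries differed in other markers: all 9 of the striatal list were lower in replicate 2, with a summed TPM of 597 and 167. All 5 of the oligodendrocyte list were also lower (998 and 649.7), and all 5 of the red blood cell list were higher (815 and 1265).

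Levels are given as TPM, which scales counts by transcript length and library and so allows genes to be compared. The members summed to 2866 TPM in replicate 1 and 2906 in replicate 2, a mean of 2886 ± 28.0 (SD, n = 2). They took 132951 counts, 0.470% of the library (95% Wilson interval 0.468 to 0.473), and 146585 counts, 0.475% (0.473 to 0.477). These intervals cover counting error only. In both libraries 49 of the 59 genes reached a TPM of 1, or 83.1%, where 58.8% of all protein-coding genes did. In both, 41 reached 10 and 9 reached 100. The members' median TPM was 19.4, and that of protein-coding genes 3.72. The family was uneven: the 5 highest members held 40.4% of its summed TPM in replicate 1 and 41.0% in replicate 2. Rab3a ranked 96 among protein-coding genes by mean TPM, and 9 members were among the first 1000.

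**Figure D1:**
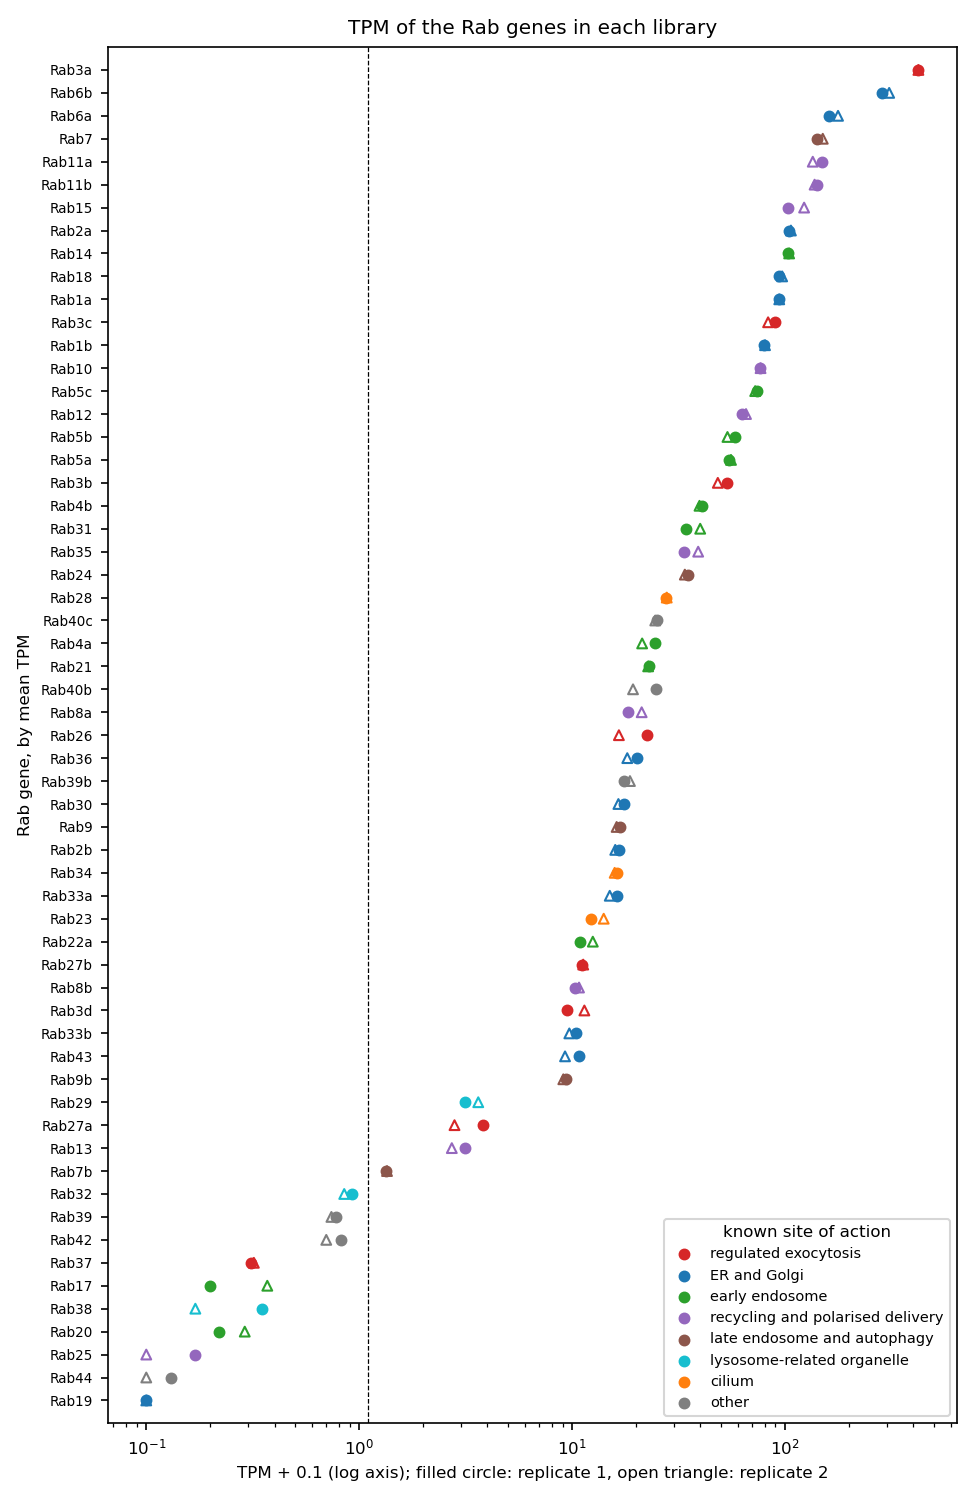
TPM + 0.1 of each of the 59 Rab genes on a log axis, with replicate 1 as filled circles and replicate 2 as open triangles, ordered by mean TPM and coloured by known site of action. The dashed line marks TPM 1: 49 genes lie to its right in both libraries, and Rab3a lies highest, at 419.9 and 422.

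The plot of levels by library shows the symbols of most genes close together, apart from genes at the bottom, which rest on few counts. Placing each gene by its best-known site of action divided the summed TPM unevenly. Rabs of the endoplasmic reticulum and Golgi held 32.1% ± 0.63 (SD, n = 2) in 13 genes. Recycling and polarised delivery held 20.9% ± 0.11 in 10 genes, and regulated exocytosis held 20.9% ± 0.56 in 8. Early endosome Rabs held 14.6% ± 0.15 in 11 genes and late endosome and autophagy Rabs 7.16% ± 0.094 in 5. Cilium Rabs held 1.96% ± 0.02 in 3 genes and lysosome-related organelle Rabs 0.146% ± 0.0045 in 3. The remaining 6 genes held 2.28% ± 0.14.

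Rabs of regulated exocytosis were led by Rab3a, the main Rab of synaptic vesicles (chromosome 8, 70754679 to 70758677, plus strand, mm10). Rab3a stood at 419.9 TPM in replicate 1 and 422 in replicate 2, the highest member in both. Rab3c, a related synaptic vesicle Rab, stood at 89.4 and 83.0. Rab3b stood at 53.3 and 48.15. Rab3d, known from secretory granules of gland cells, was the lowest of the 4 at 9.37 and 11.3. The order Rab3a, Rab3c, Rab3b, Rab3d was the same in both libraries, with no overlap between neighbours. Rab27a and Rab27b act in the docking of secretory granules. Rab27b stood at 11.0 and 11.2, above Rab27a at 3.72 and 2.70. Rab26, linked to secretory granules and synaptic vesicles, stood at 22.3 and 16.5. Rab37, described in secretory granules, was below TPM 1, at 0.21 and 0.22 from 9 and 8 counts.

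Of the Rabs of the endoplasmic reticulum and Golgi, the Rab6 pair was highest. Rab6 proteins drive transport from and through the Golgi, and Rab6b is the form known to be enriched in neurons. Rab6b (chromosome 9, 103111787 to 103185276, plus strand) stood at 285 TPM and 308. Rab6a (chromosome 7, 100607410 to 100641268, plus strand) stood at 161 and 177. Replicate 2 was the higher library for both genes, and the values of the 2 genes did not overlap. Rab2a, which acts between the endoplasmic reticulum and the Golgi and in lysosome transport, stood at 104 and 106, against 16.45 and 15.8 for Rab2b. Rab18, linked to lipid droplets and the endoplasmic reticulum, stood at 93.3 and 96.6. Rab1a and Rab1b, needed for transport from the endoplasmic reticulum to the Golgi, were close in level, without overlap. Rab1a stood at 92.9 and 93.6, and Rab1b at 79.2 and 80.3. Lower members of this class were Rab36 (20.02 and 18.0), Rab30 (17.3 and 16.4), Rab33a (16.2 and 14.9), Rab33b (10.3 and 9.59) and Rab43 (10.7 and 9.15). Rab19 was listed at 0 counts in both libraries, which allows up to 0.106 and 0.0972 CPM.

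Rabs of the early endosome were led by Rab14, which links the Golgi and endosomes, at 103 and 104 TPM. The 3 Rab5 genes, whose products govern the fusion of early endosomes, lay between 53.45 and 73.3 TPM. Rab5c stood at 73.3 and 72.2, Rab5b at 58.1 and 53.45, and Rab5a at 54.5 and 55.5. Rab5c was above the others in both libraries, while Rab5a and Rab5b overlapped. In the second transcript table, described below, Rab5c stood further above, at 174.8 and 178.7 TPM. Rab5b stood there at 83.0 and 76.4, and Rab5a at 81.5 and 82.3. Rab4 proteins return receptors from early endosomes to the surface. Rab4b stood at 40.6 and 39.5 and Rab4a at 24.4 and 21.2, without overlap. Rab31, which acts between the Golgi and endosomes, stood at 34.0 and 39.8. Rab21 stood at 22.7 and 22.6 and Rab22a at 10.8 and 12.4. Rab17, an epithelial Rab, was below TPM 1, at 0.10 and 0.27 from 1 and 4 counts, as was Rab20 at 0.12 and 0.19 from 3 and 5 counts.

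Among Rabs of recycling and polarised delivery, the Rab11 pair, which mark recycling endosomes, was highest. Rab11a stood at 149 TPM and 135, and Rab11b at 142 and 137. The order of the 2 genes differed between the libraries, so their levels were not separated. Rab15, linked to endocytic recycling, stood at 103 and 123. Rab10 and Rab8, substrates of the kinase LRRK2 that act in delivery to the surface, differed in level. Rab10 stood at 75.7 and 76.5, Rab8a at 18.1 and 21.1, and Rab8b at 10.2 and 10.7. Rab12 stood at 62.4 and 65.3. Rab35, which acts in fast recycling and neurite outgrowth, stood at 33.3 and 38.9. Epithelial members were low: Rab13, known from tight junctions, stood at 3.02 and 2.62, and Rab25 at 0.07 and 0.00, from 1 and 0 counts.

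Rab7, the Rab of late endosomes and lysosomes, stood at 141 TPM and 150. Rab24, linked to autophagy, stood at 34.8 and 33.7. Rab9 and Rab9b, which act in return from late endosomes to the Golgi, stood at 16.6 and 16.1, and at 9.21 and 8.98. Rab7b was the lowest gene counted as detected, at 1.24 and 1.25. Just below the threshold lay Rab32, at 0.82 and 0.75. Rab32 and Rab38 are known from melanosomes and related organelles, and Rab38 stood at 0.25 and 0.07, from 7 and 2 counts. Rab29, of the same class, stood at 3.03 and 3.52. Of the platelet and melanocyte markers, cells in which such organelles are prominent, 2 of 5 reached TPM 1 in both libraries, and the list summed to 4.04 and 4.53 TPM.

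The Rabs of the cilium were all detected. Rab28, known from photoreceptor cilia, stood at 27.4 TPM and 27.7. Rab34, needed to build cilia, stood at 16.2 and 15.7. Rab23, a negative regulator of Hedgehog signalling, stood at 12.2 and 13.95. Among the remaining genes, Rab39b, on the X chromosome and mutated in an X-linked intellectual disability, stood at 17.4 and 18.6. Rab40b and Rab40c, which carry a SOCS box and join ubiquitin ligases, stood at 24.6 and 19.2, and at 24.9 and 24.4. Rab39 (0.68 and 0.64), Rab42 (0.72 and 0.60) and Rab44 (0.03 and 0.00) were below TPM 1, the last from 2 and 0 counts. Rab44 had the longest coding model, of 725 residues, where the median of the 59 was 215.

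In 14 cases 2 or more members share a number, and these paralogues allow a within-family comparison. Coding identity within the groups, in nucleotides with gaps counted, was lowest for Rab7 with Rab7b. It was 49.4% there, between coding models of 621 and 471 nt. The share of each gene in the summed TPM of its group was taken in each library. The leading gene exceeded 75% in both libraries in 3 of 14 groups: Rab7 over Rab7b with 99.2% ± 0.03 (SD, n = 2), Rab39b over Rab39 with 96.5% ± 0.30, and Rab2a over Rab2b with 86.7% ± 0.48. Rab27b lay just outside, at 74.7% in replicate 1 and 80.5% in replicate 2. Rab3a followed with 74.1% ± 0.95 of the 4 Rab3 genes. Leaders in the middle of the range were Rab8a (65.2% ± 1.78), Rab9 (64.2% ± 0.15), Rab4b (63.8% ± 1.83), Rab6b (63.7% ± 0.34), Rab33a (60.9% ± 0.15) and Rab1a (53.9% ± 0.11). Rab40c had 50.4% in replicate 1 and 56.0% in replicate 2. Rab5c led the Rab5 genes with 39.6% ± 0.30, and Rab11a had 51.3% and 49.5%. The median share of the leading gene was 64.0%.

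Several of these orders depend on what is measured. By expected counts, which grow with transcript length, 6 groups had another leader. Rab3c took 49.5% of the Rab3 counts and Rab3a 43.4%: the main transcript of Rab3c, Rab3c-201, is 8444 nt long, and that of Rab3a, Rab3a-201, is 1363 nt. The same change of leader was found for Rab8a (44.0% of counts), Rab9 (38.2%), Rab33a (37.3%), Rab5c (30.9%, behind Rab5b with 39.7%) and Rab11a (46.8%). Rab11a had led by the mean only, with 51.3% and 49.5% of TPM, so the Rab11 pair had no separated leader to change. When only transcripts with a complete annotated coding sequence were summed, a choice made after the data were seen, Rab8b led Rab8a, which held 41.2%. Rab8a then stood at 7.30 and 7.35 TPM, and Rab8b at 10.2 and 10.7. Under the same restriction Rab11a held 70.2% of the Rab11 pair, by the first transcript table. In the second, complete coding transcripts held 39.5% and 30.8% of Rab11a, and 36.5% and 39.1% of Rab11b. Gene TPM there was 304 and 283 for Rab11a, and 310 and 281 for Rab11b. The 70.2% share thus depends on the quantification.

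**Figure D2:**
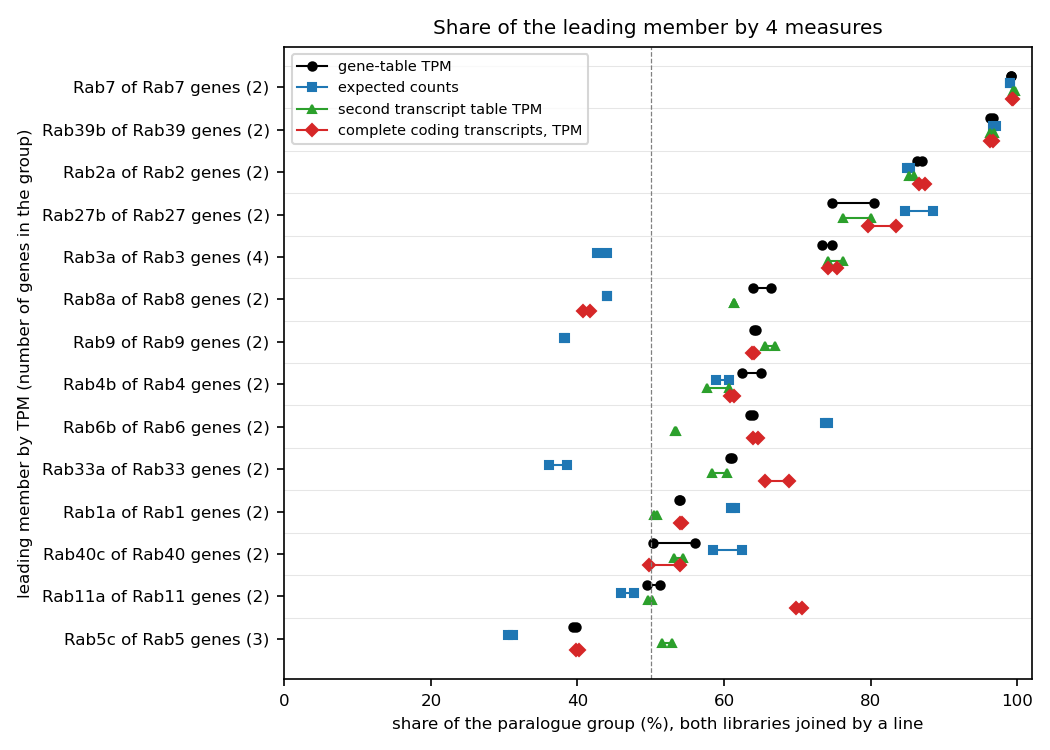
Share of the leading gene in each of 14 paralogue groups, as a percentage of the group. The measures are gene-table TPM, expected counts, TPM of the second transcript table and TPM of complete coding transcripts in the first. Each line joins the 2 libraries: Rab7, Rab39b and Rab2a stay right of 75% by all 4 measures, whereas Rab3a falls to 43.4% by counts and Rab11a reaches 70.2% by complete coding transcripts.

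The transcripts behind the levels were examined next, from the deposited percentage of each gene's abundance given to each transcript. One transcript held over 50% of its gene in both libraries in 36 of the 49 detected members, and 6 of the 49 had a single annotated transcript. Of the 41 members at TPM 10 or more in both libraries, complete coding transcripts held over 75% of TPM in both libraries in 33 and under 50% in both in 3. The most uniform genes were Rab2a, Rab10, Rab39b, Rab33a and Rab8b, each with 1 annotated transcript at 100%, followed by Rab31 with 99.6% and 99.7% in Rab31-201. The most divided were Rab23 (37.7% and 39.9% in Rab23-201), Rab11b (41.8% and 42.2% in Rab11b-204), Rab18 (45.3% and 40.7% in Rab18-201), Rab11a (47.7% and 43.0% in Rab11a-206), Rab34 (49.4% and 43.6% in Rab34-203) and Rab30 (47.1% and 52.9% in Rab30-203).

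By these deposited percentages, the 3 genes with under 50% in complete coding transcripts were Rab8a, Rab11b and Rab23. Rab8a gave 59.7% and 65.1% to Rab8a-202, a retained-intron transcript of 542 nt. Rab11b gave 41.8% and 42.2% to Rab11b-204, a transcript of 924 nt annotated for nonsense-mediated decay. Rab23 gave 56.55% and 60.1% to transcripts without an annotated coding sequence. Rab35 gave 18.5% and 33.8% to Rab35-202, also annotated for nonsense-mediated decay. Rab35 stood higher in replicate 2 by TPM, at 33.3 and 38.9, while its CPM differed by 0.04 on the log2 scale. Rab11a stood lower in replicate 2 by TPM, at 149 and 135, while its CPM was higher by 0.06 on that scale. In both genes the shares of short transcripts differed between the libraries.

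**Figure D3:**
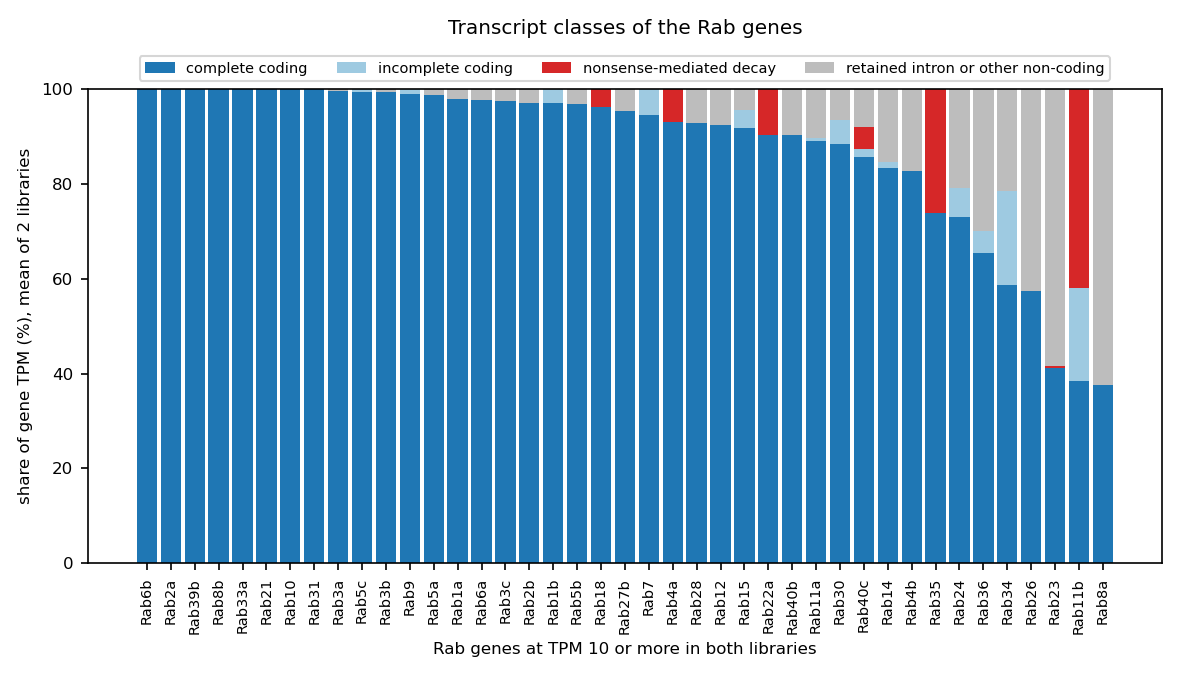
Share of each gene's TPM in 4 classes of annotated transcript, as the mean of both libraries. Shown are the 41 Rab genes at TPM 10 or more in both, by the first transcript table. Most bars are filled by complete coding transcripts; Rab8a, Rab11b and Rab23 at the right have under 50%.

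The second transcript table, made directly from the reads, named the same leading transcript in 37 of the 49 detected members. Among the 20 highest members it named another in 6. For Rab3a it gave Rab3a-201 0.007% in replicate 1 and 49.3% in replicate 2, where the first table gave 79.9% in both. Rab3a-202 took 55.9% and 7.07%, so the division among Rab3a transcripts was not stable there, although the 4 main transcripts are all complete coding. Rab11b-204, leading in the first table, held 0.394% and 0%, and Rab11b-205, a processed transcript of 503 nt with no annotated coding sequence, took 53.1% and 49.97%. Rab11a-206 took 11.1% and 0%. Rab11a-208, at 25.0% and 28.8%, led Rab11a there by the mean, while Rab11a-202, at 27.5% and 23.4%, was above it in replicate 1. Rab7 was led by Rab7-207 (48.5% and 45.7%) instead of Rab7-205, Rab18 by Rab18-202 (40.4% and 37.2%) instead of Rab18-201, and Rab12 by Rab12-201 (77.1% and 87.4%) instead of Rab12-205. The shares of complete coding transcripts changed too. In the second table they held 54.7% and 54.0% of Rab8a, while Rab11b and Rab23 stayed under 50%. Rab11a fell to 39.5% and 30.8%, from 84.9% and 93.1% in the first table. Rab7 fell to 51.5% and 54.3%, from 95.0% and 93.9%. Summed per gene, the second table gave higher TPM: its ratio to the gene table ranged from 1.01 for Rab43 to 2.85 for Rab7 over the detected members, with a median of 1.62, and the median over protein-coding genes was 1.55.

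Rab6a offers a case where the transcripts encode different proteins. A pair of alternative exons, each 106 nt and exon number 4 of its transcript, yields proteins long known as the A and A′ forms. The exon of Rab6a-201 lies at chr7:100629838-100629943 (mm10, plus strand) and that of Rab6a-203, shared with Rab6a-202, at chr7:100629666-100629771. They are printed 5′ to 3′ to show where they differ, with the 30 differing positions in capitals.
Rab6a-201: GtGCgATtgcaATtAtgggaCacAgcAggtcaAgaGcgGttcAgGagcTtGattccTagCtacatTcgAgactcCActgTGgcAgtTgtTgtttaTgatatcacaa
Rab6a-203: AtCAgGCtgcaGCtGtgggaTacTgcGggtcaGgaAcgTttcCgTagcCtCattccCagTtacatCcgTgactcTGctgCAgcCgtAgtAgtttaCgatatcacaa
The proteins of Rab6a-201 and Rab6a-202, both of 208 residues, differ at 3 residues, whereas Rab6a-203 encodes 175 residues. Rab6a-201 held 85.9% of Rab6a in replicate 1 and 90.7% in replicate 2. Rab6a-203 held 11.4% and 7.09%, and Rab6a-202 was listed at 0 in both. In the second table Rab6a-201 held 57.4% and 60.5%, Rab6a-203 2.96% and 2.04%, and Rab6a-202 1.22% and 0.864%. There Rab6a-204, a retained-intron transcript, took 38.4% and 36.6%. The exon of Rab6a-201 was thus in the leading transcript by both quantifications.

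Other annotated genes share sequence with some members. Over 10% of 31-base words were found in the transcripts of another gene, on either strand, for 13 of the 59 members. Rab43 shared 74.8%, with Gm45140, and Rab4b 62.7%, mainly with Gm21983, both on the same strand. Rab2b (59.6%), Rab24 (54.4%) and Rab6a (21.3%) shared them mostly with antisense genes, Gm43766, Prelid1 and Mrpl48. Rab7 shared 18.4%, mainly with the pseudogene Rab7-ps1, and Rab11b 15.4%, mainly with the pseudogene Rab11b-ps2. How reads within shared same-strand sequence were assigned was not examined. For the antisense genes, use of strand in counting is not given in the sources used here. Of the genes sharing sequence, Gm21983 was listed at 0 counts in both libraries, and Gm43766 held 4 and 3. Prelid1 held 1858 and 1907.59 counts, against 730 and 751 for Rab24. Mrpl48 held 747.64 and 890.26, against 9086 and 10810 for Rab6a. Gm45140 held 37.93 and 109.88, against 522.62 and 582.24 for Rab43. Whether shared reads changed the levels of these Rab genes was not tested.

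The 2 libraries were then compared for each member, as the log2 difference in CPM, replicate 2 minus replicate 1. This compares these libraries only. A gene was compared where either library held 10 or more counts, which left 51 members. Of these, 0 passed 1.5-fold, where 11.0% of 18965 genes did (4.35% higher and 6.61% lower in replicate 2). Most members are well covered, and among genes averaging 100 or more counts the background share was 2.93%, with 0 of 46 members. The median absolute difference was 0.06 on the log2 scale over the 51 members and 0.14 over all genes. With at least 100 counts it was 0.05 over the members and 0.10 over all genes. The members' median difference was 0.01, with 28 higher and 23 lower in replicate 2. Without TMM normalization, which moved the median of all genes to -0.03, it was -0.02 with 21 higher and 30 lower, so no direction is given.

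Past 1.2-fold, a limit added after the data were seen, lay 2 members, where 30.3% of all genes did and 15.4% of genes averaging 100 or more counts. Rab26, with 580 and 448 counts, differed by -0.47 on the log2 scale. Rab27a, with 163 and 131 counts, differed by -0.41. Of the other regulated exocytosis genes compared, Rab3a (-0.0002), Rab27b (0.06), Rab3d (0.11), Rab3c (-0.08) and Rab3b (-0.12) lay closer to 0. Rab26 and Rab27a were lower in replicate 2, the library in which 9 of 9 striatal and 5 of 5 oligodendrocyte markers were also lower. So were 3 of 3 precursor markers and, of the inhibitory neuron list, Gad2 (-0.50), Sst (-0.42) and Gad1 (-0.33). The other 2 inhibitory markers, Vip (0.72) and Pvalb (0.60), were higher. The median of the striatal list was -2.01 and that of the oligodendrocyte list -0.64, and the extremes over all marker lists were Drd2, striatal, at -2.84 and Folr1, of the choroid plexus, at 2.46. Their part in the differences of Rab26 and Rab27a was not tested, and in bulk tissue fewer cells of a type and less RNA per cell cannot be told apart. Rab26 also overlaps Traf7 on the same strand and AC132367.1 on the other. Next were Rab40b (-0.23) and Rab34 (-0.21). The highest were Rab31 (0.22), Rab15 (0.21) and Rab6a (0.15), and Rab3a differed by -0.0002.

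**Figure D4:**
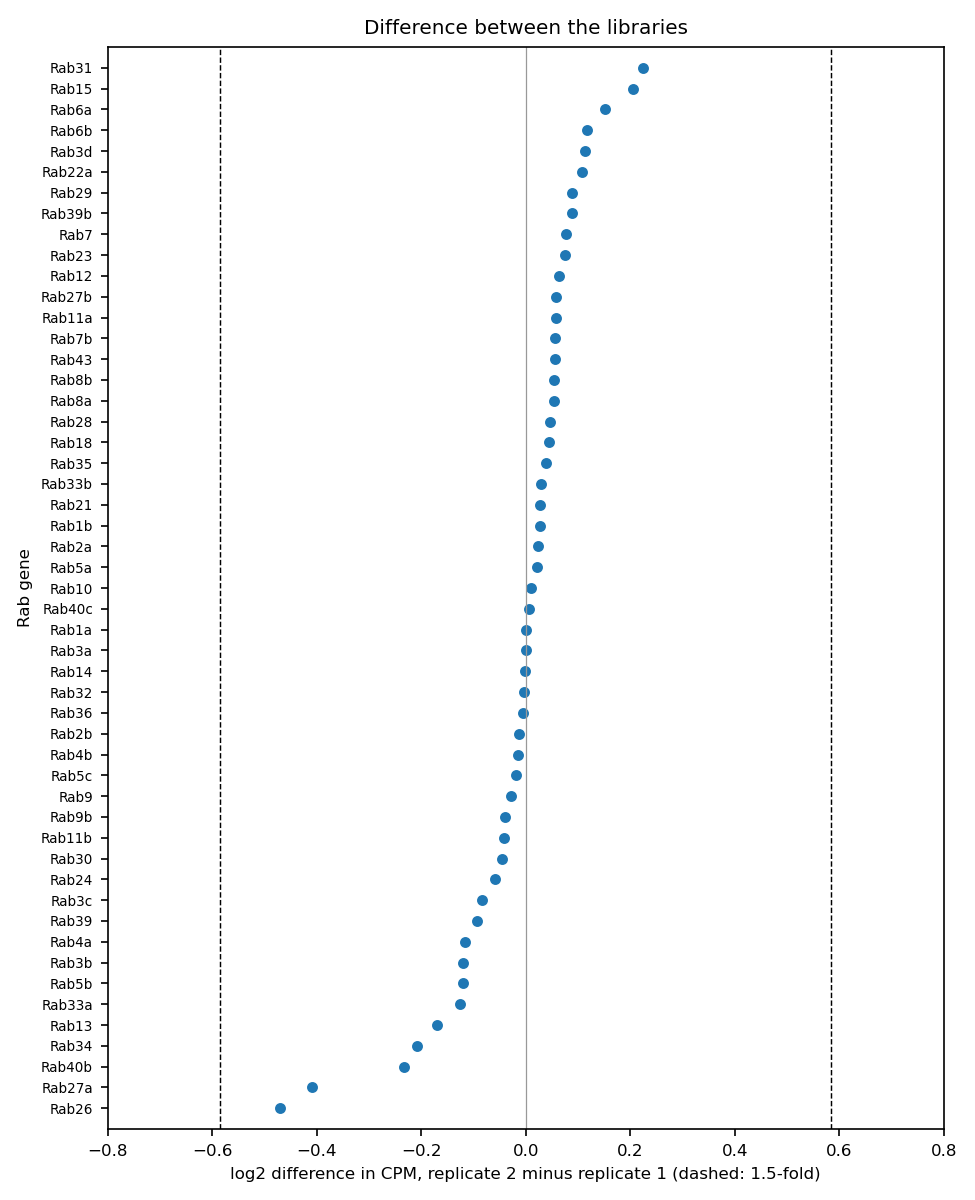
Log2 difference in CPM between the libraries, replicate 2 minus replicate 1, for the 51 Rab genes with 10 or more counts in either library, in order of size. Dashed lines mark 1.5-fold: no gene lies outside them, and Rab26 (-0.47) and Rab27a (-0.41) lie lowest.

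Genes that work with Rab proteins were taken from 7 lists of regulators and effectors. Of 143 listed genes 142 were matched (Dennd2b was not), and 129 reached TPM 1 in both libraries, where 58.8% of all protein-coding genes did. All 8 genes of prenylation and membrane extraction were detected. Rabac1, a receptor for prenylated Rabs, stood at 142 TPM and 138, and Gdi2, a GDI, at 134 and 136.

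Of the GEFs 33 of 36 were detected. Madd, the exchange factor for Rab3 and Rab27, was highest at 90.9 TPM and 109, followed by Sbf1 (87.55 and 90.3) and Dennd5a (80.2 and 84.5). Of the GAPs 30 of 32 were detected, led by Rabgap1l (84.4 and 77.6). Next by mean TPM were Sgsm1 (42.3 and 50.1) and Tbc1d9 (45.6 and 46.5), though Tbc1d9b (49.5 and 41.1) was above both in replicate 1. The most incomplete list was that of exocytosis effectors, with 11 of 16 detected. Its highest genes were Syn1, a synaptic vesicle phosphoprotein that binds Rab3a (248 and 273), the active zone protein Rims1 (140.4 and 174) and Rph3a, rabphilin (113 and 115). The 5 others were Sytl1, Sytl3, Sytl4, Mlph and Unc13d, of which the highest single value was 0.42 TPM, for Unc13d. In the second table Unc13d stood at 2.75 and 2.55. All 5 are known as Rab27 effectors, as are Myrip (38.6 and 44.4), Sytl2 (25.6 and 35.0), Exph5 (5.27 and 8.69) and Sytl5 (2.61 and 1.63) of the same list, which were detected.

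Effectors of endosomes and recycling were detected at 21 of 22, led by the motor Myo5a (110.3 and 116), Rab11fip4 (90.4 and 95.7) and Rufy3 (83.9 and 86.95). Those of late endosomes and lysosomes were detected at 12 of 13. Osbpl1a, a sterol-binding protein that binds Rab7, led them at 133 and 216, followed by Vps41 (60.8 and 64.2). Vps39 (26.7 and 28.6) and Rubcn (27.2 and 27.9) overlapped. The list of Golgi effectors had 14 of 15 detected. Its highest gene, Erc2 (113 and 114), is known as an active zone protein. Next were Bicdl1 (55.3 and 57.1) and Gorasp2 (44.1 and 42.7), and Erc1 stood at 39.7 and 40.9. Between the libraries, 6 of 140 of these genes passed 1.5-fold, where 11.0% of all genes did and 2.93% of genes averaging 100 or more counts. Osbpl1a (0.67) and Exph5 (0.72) were higher in replicate 2. Tbc1d10c (-0.98), Rilp (-0.75), Tbc1d8 (-0.70) and Sytl5 (-0.66) were lower. Of these, Tbc1d10c (46.43 and 24.45 counts), Rilp (39 and 24) and Sytl5 (109 and 73) averaged under 100 counts. By count limit the 6 of 140 goes with the share of 11.0%, but coverage differed. Of the 140, 127 averaged 100 or more counts, against 12624 of all 18965 genes. Among those 127, only Osbpl1a, Exph5 and Tbc1d8 passed 1.5-fold, beside the share of 2.93%. No difference from all genes is read from these counts.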

How the data were processed

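Total RNA of 2 libraries was analysed from the deposited tables. Per the file headers and the deposited description files, transcriptome alignments to mm10 (annotation: GENCODE M21) gave the gene table and the first transcript table. The deposited expected counts are estimated reads, not normalized. The deposited TPM and FPKM values are scaled by length and library, and the deposited percent gives each transcript's share of its gene. A second transcript table, with its own deposited estimated counts and TPM, was summed per gene. Column names are those of RSEM and kallisto; tools, versions and the use of strand: not given in the sources used here.

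The 97 spike-in or phiX entries and 26248 entries named by a number were left out (0.404% and 0.387% of counts with them in replicates 1 and 2). A chi-square of 11.98 per degree of freedom over 17769 genes (10 or more counts in each) showed the files to be different libraries. Expected counts were rounded, scaled with TMM in edgeR 4.0.16 (R 4.3.3) and compared as log2 CPM with a prior count of 2, where either library held 10 or more counts. These steps were tested on simulated data. Alternatives used DESeq2 1.42.0 size factors, other filters, thresholds and tables. Other steps used Python 3.11.15, pandas 2.3.3, numpy 2.4.6 and matplotlib 3.10.9.

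A complete coding transcript is one annotated protein_coding with no tag for a missing start or end. Coding identity was computed on nucleotides with Biopython 1.88. Members, lists and roles were chosen with earlier results of these data known. Named were the 12 highest members, all paralogues, all members below TPM 1 or past 1.5-fold, transcripts at the extremes of leading share among members at TPM 10 or more, those with another leader in the second table among the 20 highest, and the 3 highest genes of each regulator list. Other names were chosen after their values were seen. One item that this rule names is not reported here.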

Additional observations from a re-analysis of the deposited data

Results flagged for a closer look

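Of 6 genes examined that are named after Rab genes but lie outside the family, 4 took counts above the limit of 3 counts that a count of 0 allows. Rab10os, annotated antisense to Rab10, held 816 expected counts in replicate 1 and 800.0 in replicate 2. Rab26os, also annotated antisense, held 27 and 31. The processed pseudogene Rab11b-ps2 held 28.67 and 62.83 counts, and Rab7-ps1 held 5.31 and 20.54. In the second table Rab11b-ps2 stood at 68.0 and 74.9 TPM, against 2.72 and 5.58 in the gene table. The pseudogenes Rab5a-ps and Rab9b-ps1 were listed at 0 in both libraries. Rab10 shares 3.22% of its 31-base words with other genes, mainly Rab10os, and the use of strand in counting is not given in the sources used here. How reads shared by a pseudogene and its parent were assigned was not examined.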

How the results depend on the processing

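The number of members at TPM 1 in both libraries stayed between 48 and 56 over thresholds of 0.5, 1 and 2, any value above 0, FPKM, the second table and complete coding transcripts, and was 49 without either replicate. The number past 1.5-fold was 0 with DESeq2 size factors, without TMM, with a mean of at least 100 counts, with a prior count of 0.5 and in the second table. It was 4 without a filter on counts (Rab17, Rab25, Rab38 and Rab44, each with at most 7 counts in a library), and 2 at 1.2-fold. The summed TPM was 5129 in the second table and 2632 over complete coding transcripts, and 2866 to 2906 leaving out 1 replicate. The median leading share was 61.5% by expected counts, 60.3% in the second table, 65.8% over complete coding transcripts, and 63.9% to 64.6% leaving out 1 replicate. With a limit of 50%, 12 groups had a leader in both libraries; at 75% the number was 3 to 4 leaving out 1 replicate. The leader changed by expected counts for Rab3a (43.4%), Rab5c (30.9%), Rab8a (44.0%), Rab9 (38.2%), Rab11a (46.8%) and Rab33a (37.3%). It changed in the second table for Rab11a (49.9%), and over complete coding transcripts for Rab8a (41.2%). Rab11a had led by mean TPM only, as the order of the pair differed between the libraries. Counts grow with transcript length, and the cause of the changes by the other measures was not tested. Members with 1 transcript over 50% numbered 39 to 40 leaving out 1 replicate, and detected regulators and effectors 130 to 132. Complete coding transcripts and 1.2-fold were chosen after seeing the data. No paired analysis was possible because there is 1 group. Differences between the libraries cannot be recomputed without a library. Below about 10 counts, as for 8 members, depth limits any statement on level.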
